A study of Mus musculus with 8 samples.

Results

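A group of 8 long RNAs that act or accumulate in the cell nucleus was followed in single nuclei RNA sequencing of the mouse ventricular-subventricular zone (V-SVZ), the stem cell layer along the lateral ventricle. They are Malat1, Neat1, Miat, Meg3, Rian, Mirg, Kcnq1ot1 and Snhg11. They were chosen by name, with earlier results of these data known. All 8 symbols were found, and the RNAs make up 8 of the 32285 genes counted in each library. The series holds 8 libraries from 8 mice at postnatal day 90, 4 Tsc2wt/wt and 4 Tsc2mut/mut, with 1 library per mouse. Tsc2 encodes a brake on the mTORC1 growth pathway, and the mutant allele is a conditional one that loses function when Cre recombinase acts. Nuclei of both groups were sorted for tdTomato, the reporter that Cre switches on, so the controls carry Cre and reporter too. The methods describe both a tamoxifen-inducible Nestin Cre and an electroporated Cre plasmid, and do not state which of these drove recombination in the sequenced mice. The libraries were made with a 3′ kit, which primes reverse transcription on stretches of adenine and counts unique molecular identifiers (UMIs).

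Malat1 gathers in nuclear speckles, where splicing factors are stored, and Neat1 is the scaffold of paraspeckles, bodies that hold RNA-binding proteins such as SFPQ, NONO and PSPC1. Miat forms its own nuclear domain and is best known from neurons and the retina. Meg3, Rian and Mirg are transcribed from the maternal chromosome of the imprinted Dlk1-Dio3 domain, where Rian hosts small nucleolar RNAs and Mirg hosts microRNAs. Kcnq1ot1 is transcribed from the paternal chromosome and silences its imprinted neighbours in cis. Snhg11 hosts small nucleolar RNAs in its introns and is used as a neuronal transcript in brain atlases. Mitochondrial transcripts are made outside the nucleus, so a nucleus that was washed free of cytoplasm should carry few of them. The share of UMIs from the 13 mitochondrial genes, called the mitochondrial share below, was therefore set beside the level of each nuclear RNA.

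The 8 genes lie at 5 places in the genome (GRCm38, GENCODE M21). Malat1 is on chr19:5795690-5802672 and Neat1 on chr19:5824708-5845478, both on the minus strand and 22035 bp apart. Meg3 (chr12:109541001-109571726), Rian (chr12:109603940-109661716) and Mirg (chr12:109729764-109749460) share the plus strand of 1 interval of 208460 bp, which also holds 54 microRNA hairpins of the RefSeq table on that strand. Of these hairpins, 1 lies in the span of Meg3, 3 in that of Rian and 14 in that of Mirg. Kcnq1ot1 (chr7:143203458-143296549, minus strand) is a single exon of 93092 bp on the strand opposite Kcnq1. Miat (chr5:112213228-112229395, minus strand) is overlapped on the other strand by the noncoding gene Gm26953. Snhg11 (chr2:158375638-158386145, plus strand) is annotated as protein coding in this release, although it is known as a noncoding host gene. 10x counting takes the strand of a read into account.

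Because the primer of these libraries binds adenine, runs of 8 or more adenines inside each annotated transcript were searched on the sense strand, and the longest run of each gene is shown with 15 bases before it and 10 after it. Capitals mark the run. Each line is 5′ to 3′ on the strand of the gene.
Malat1, chr19:5795978-5796014, minus strand: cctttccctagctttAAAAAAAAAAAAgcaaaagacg
Meg3, chr12:109545802-109545842, plus strand: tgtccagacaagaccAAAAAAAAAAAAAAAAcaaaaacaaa
Rian, chr12:109652214-109652253, plus strand: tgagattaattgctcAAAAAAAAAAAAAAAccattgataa
Kcnq1ot1, chr7:143226935-143227000, minus strand: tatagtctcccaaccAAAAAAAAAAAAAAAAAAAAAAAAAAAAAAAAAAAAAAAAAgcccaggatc
Snhg11, chr2:158379012-158379045, plus strand: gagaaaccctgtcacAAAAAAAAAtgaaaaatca
Kcnq1ot1 had 30 such runs, the longest of 41 bases. Meg3 had 7 runs, Snhg11 had 4, Rian had 3 and Malat1 had 1 run of 12 bases, 298 bases from the end of its 6983-base transcript. No run of 8 was found in Neat1, Miat or Mirg. The files hold gene counts without read positions, so whether any of these runs was primed was not tested, and levels are compared below between barcodes for 1 RNA at a time and not between RNAs.

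Each library was deposited with 60000 barcodes, and a total of 11182335 to 36773832 UMIs. A barcode was kept when it had at least 300 genes, which left 37881 kept barcodes, 1923 to 10153 per mouse. In the kept barcodes, mitochondrial genes gave 34.0% to 44.6% of UMIs in every library. A low-mitochondrial barcode had under 20% mitochondrial UMIs, a high-mitochondrial one had 40% or more. Only 3470 kept barcodes were low-mitochondrial, 4.76% to 13.3% per mouse, against 28840 high-mitochondrial ones and 5571 between. Low-mitochondrial barcodes were deeper, with medians of 1927 to 4432 UMIs against 885 to 1335. Free RNA was read from the 20000 barcodes with the fewest UMIs of each library. The deepest of these held 55 UMIs in Tsc2wt/wt replicate 3 and up to 461 in Tsc2mut/mut replicate 3. Whether nuclei or debris are among them was not tested, so free RNA below names this set of barcodes. Tsc2 itself was counted at 19.3 to 22.3 CPM (UMIs of a gene per 1000000 non-mitochondrial UMIs) in the Tsc2wt/wt mice and 15.2 to 21.5 in the Tsc2mut/mut mice, in overlapping ranges, and gene counts cannot show whether those reads lie in the part that Cre removes. The library labelled Tsc2mut/mut replicate 4 stood apart. Of its 199 low-mitochondrial barcodes, 57.8% carried choroid plexus markers, against 0.524% to 13.7% in the other mice, and it is given separately where a value rests on it. Its summed choroid plexus markers were at 2349 CPM in low-mitochondrial barcodes, against 134 to 1434 CPM, and its inhibitory neuron markers at 71.0 CPM, against 823 to 1939 CPM. Of the kept barcode sequences, 166 occurred in more than 1 library.

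Summed per mouse, Malat1 was higher in low- than in high-mitochondrial barcodes in 8 of 8 mice. Levels in CPM leave mitochondrial UMIs out of the total, so these do not dilute them. In low-mitochondrial barcodes Malat1 was at 23946, 36912, 38221 and 34404 CPM in Tsc2wt/wt replicates 1 to 4 and at 24083, 26484, 26457 and 1834 CPM in Tsc2mut/mut replicates 1 to 4. In high-mitochondrial barcodes it was at 450, 1102, 316 and 457 CPM and at 737, 417, 1268 and 691 CPM in the same order. The classes did not overlap, and the lowest low-mitochondrial value was that of Tsc2mut/mut replicate 4. The ratio of the classes within a mouse was 2.66 at the lowest and 43.4 at the median of 8 mice. Barcodes with 20% to 40% mitochondrial UMIs were at 2331 to 7449 CPM, between the classes in 7 mice and above the low class in Tsc2mut/mut replicate 4, where they held 3751 CPM.

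Neat1 and Kcnq1ot1 were also higher in the low than in the high class of each mouse, and in Tsc2mut/mut replicate 4 both were highest in the class between, at 25.3 and 39.4 CPM. Neat1 was at 178, 249, 289 and 293 CPM in low-mitochondrial barcodes of the Tsc2wt/wt mice and at 305, 331, 221 and 18.0 CPM in those of the Tsc2mut/mut mice. High-mitochondrial barcodes held 0.996 to 11.8 CPM, and the median ratio within a mouse was 40.1. Kcnq1ot1 was at 222, 278, 340 and 276 CPM and at 254, 293, 194 and 20.3 CPM in low-mitochondrial barcodes, with 0.792 to 9.84 CPM in high-mitochondrial ones. Its median ratio within a mouse was 51.0, and the low class was the higher in 8 of 8 mice for both RNAs. In Tsc2wt/wt replicate 1 the high-mitochondrial Neat1 value rests on 1 UMI, as does the high-mitochondrial Kcnq1ot1 value of Tsc2wt/wt replicate 3, so the largest single ratios are not given. Miat gave 32, 50, 16 and 23 UMIs in the low-mitochondrial barcodes of the Tsc2wt/wt mice and 76, 24, 67 and 1 in those of the Tsc2mut/mut mice. That is 18.1 to 36.6 CPM in 7 mice and 1.13 CPM in Tsc2mut/mut replicate 4, while high-mitochondrial barcodes held 0.792 to 3.28 CPM.

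**Figure D1:**
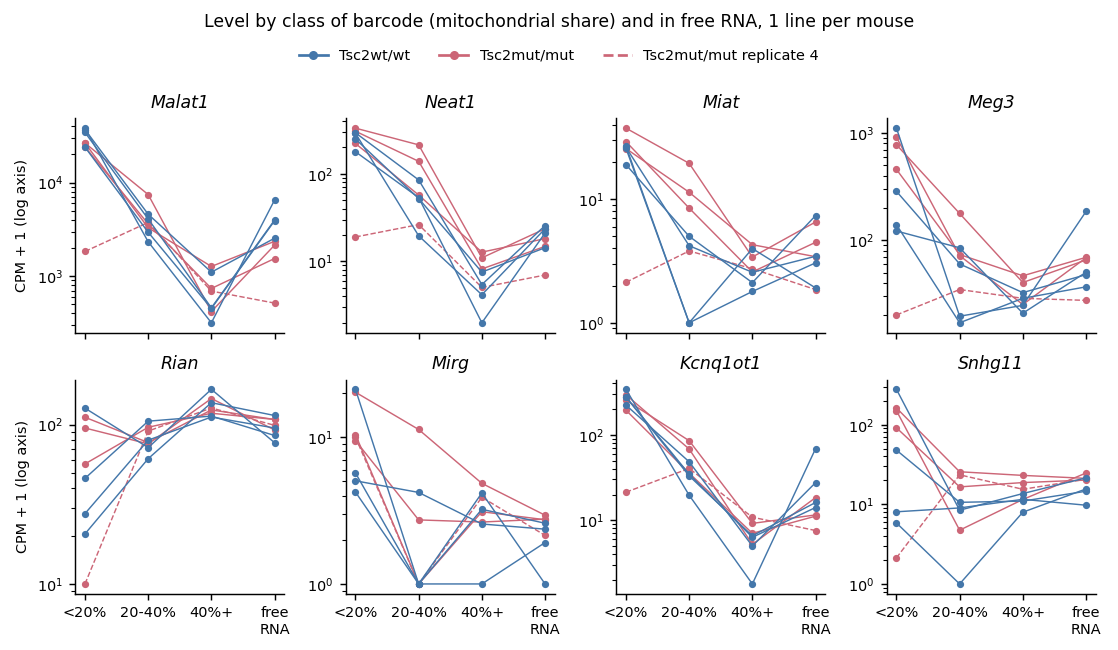
CPM + 1 of each of the 8 RNAs (log axis) in barcodes with under 20%, 20% to 40% and 40% or more mitochondrial UMIs and in free RNA, with 1 line per mouse, blue for Tsc2wt/wt and red for Tsc2mut/mut. Malat1, Neat1 and Kcnq1ot1 fell from the first class to the third in 8 of 8 mice, Rian was higher in the third class in 8 of 8 mice, and the dashed line (Tsc2mut/mut replicate 4) starts below the others in the low-mitochondrial class for every RNA but Mirg.

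The 3 RNAs of the Dlk1-Dio3 domain did not move together. Meg3 was at 121, 285, 1110 and 139 CPM in low-mitochondrial barcodes of the Tsc2wt/wt mice and at 777, 914, 457 and 19.2 CPM in those of the Tsc2mut/mut mice. It was at 19.9 to 45.7 CPM in high-mitochondrial barcodes, so that 7 of 8 mice were higher in the low class, and only Tsc2mut/mut replicate 4, at 27.8 CPM in the high class, was not. Mirg stayed close to the limit of counting, with 4, 8, 13 and 6 UMIs and with 40, 8, 23 and 8 UMIs in low-mitochondrial barcodes.

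Rian took the opposite direction. It was at 26.6, 45.0, 126 and 19.6 CPM and at 110, 94.2, 55.7 and 9.01 CPM in low-mitochondrial barcodes. In high-mitochondrial barcodes it was at 111, 112, 166 and 136 CPM and at 123, 145, 117 and 126 CPM. Rian was lower in the low class in 8 of 8 mice, with a median ratio of 0.439. Across mice its high-mitochondrial level varied less (129 ± 18.7 CPM, SD, n = 8) than its low-mitochondrial level (60.8 ± 44.1 CPM, SD, n = 8).

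Snhg11 was uneven. Low-mitochondrial barcodes held 4.84, 47.0, 278 and 7.07 CPM in the Tsc2wt/wt mice and 162, 150, 90.7 and 1.13 CPM in the Tsc2mut/mut mice, against 6.97 to 22.1 CPM in high-mitochondrial barcodes. It was higher in the low class in 5 of 8 mice.

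Free RNA held UMIs of each transcript in every library but for Mirg, which had 0 in Tsc2wt/wt replicate 3 and 1 to 8 in the others. Malat1 in free RNA ranged from 514 to 6513 CPM, above the high-mitochondrial level in 7 of 8 mice. The high-mitochondrial level was a median of 0.314 times the free RNA level for Malat1, 0.467 for Neat1 and 0.387 for Kcnq1ot1. Rian was at 1.09 to 2.18 times its free RNA level in 8 of 8 mice, and Mirg, on few UMIs, was above it in 5 of 8. Low-mitochondrial barcodes exceeded free RNA in 8 of 8 mice for Malat1, Neat1, Kcnq1ot1, Miat and Mirg, in 7 for Meg3, in 5 for Snhg11 and in 3 for Rian.

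The fall in Malat1 was concentrated between 20% and 40% mitochondrial UMIs. Leaving aside Tsc2mut/mut replicate 4, barcodes with 0% to 5% mitochondrial UMIs were at 24933 to 43857 CPM and those with 10% to 20% at 15498 to 29963 CPM. Barcodes with 20% to 30% were at 6536 to 14788 CPM, those with 30% to 40% at 438 to 1816 CPM and those with 40% to 50% at 330 to 1302 CPM. From there the level was nearly flat, with 306 to 1138 CPM at 50% to 60%. Tsc2mut/mut replicate 4 ran the other way at the low end, with 915 CPM at 0% to 5%, 1956 at 5% to 10%, 3072 at 10% to 20% and 9531 at 20% to 30%, before it fell to 2655 CPM at 30% to 40%, above the range of the other mice, and to 732 CPM at 40% to 50%, within it. Its low bins hold 49, 86, 64 and 73 barcodes. Neat1 kept 71.4 to 422 CPM in the 20% to 30% bin of the other 7 mice and dropped to 0 to 52.8 CPM in the next. Kcnq1ot1 went from 71.4 to 203 CPM in that bin to 0 to 17.3 CPM in the next. Rian showed no such step and was at 60.4 to 120 CPM in the 30% to 40% bin and at 112 to 175 CPM in the 40% to 50% bin of all 8 mice.

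**Figure D2:**
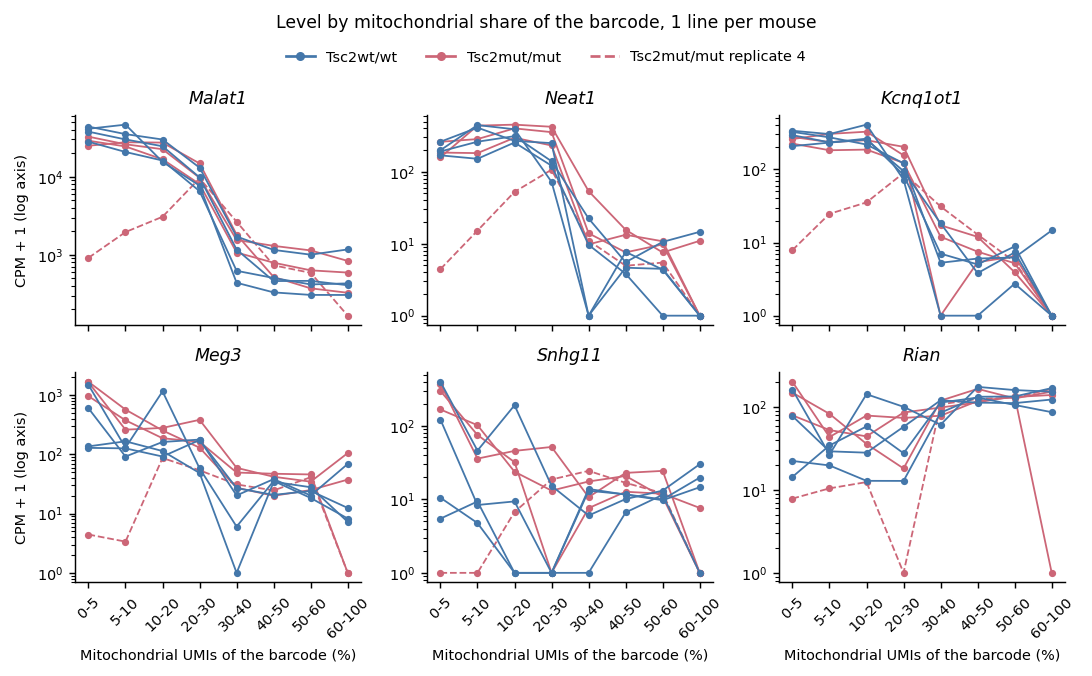
CPM + 1 (log axis) of 6 RNAs against the mitochondrial share of the barcode in 8 bins, with 1 line per mouse, blue for Tsc2wt/wt and red for Tsc2mut/mut. Malat1, Neat1 and Kcnq1ot1 drop between the 20% to 30% and the 30% to 40% bins, Rian does not, and the dashed Tsc2mut/mut replicate 4 rises toward that step from the left.

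Barcode by barcode, Malat1 gave a median of 1.59% to 2.45% of the non-mitochondrial UMIs of a low-mitochondrial barcode in 7 mice and 0% in Tsc2mut/mut replicate 4. The median of the high-mitochondrial barcodes was 0% in 8 of 8 mice, and 55.4% to 86.6% of them held no Malat1 UMI. Among low-mitochondrial barcodes, 2.26% to 16.1% held none in 7 mice and 80.4% held none in Tsc2mut/mut replicate 4. As the classes differ in depth, each barcode was also thinned to 500 non-mitochondrial UMIs. Barcodes with fewer were left out, 1 to 18 low-mitochondrial and 478 to 4509 high-mitochondrial ones per mouse. High-mitochondrial barcodes had medians of 466 to 622 non-mitochondrial UMIs, so the thinned values cover the deeper part of that class. Malat1 was then found in 77.5% to 96.1% of low-mitochondrial barcodes in 7 mice and 11.7% in the eighth, against 12% to 40.3% of high-mitochondrial barcodes. Thinned Neat1 was found in 10.9% to 19.3% and 1.02% against 0% to 0.628%. Thinned Rian was found in 0% to 3.20% of low-mitochondrial and 4.80% to 7.88% of high-mitochondrial barcodes. A share of barcodes with a UMI includes free RNA, which alone holds 514 to 6513 CPM of Malat1.

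**Figure D3:**
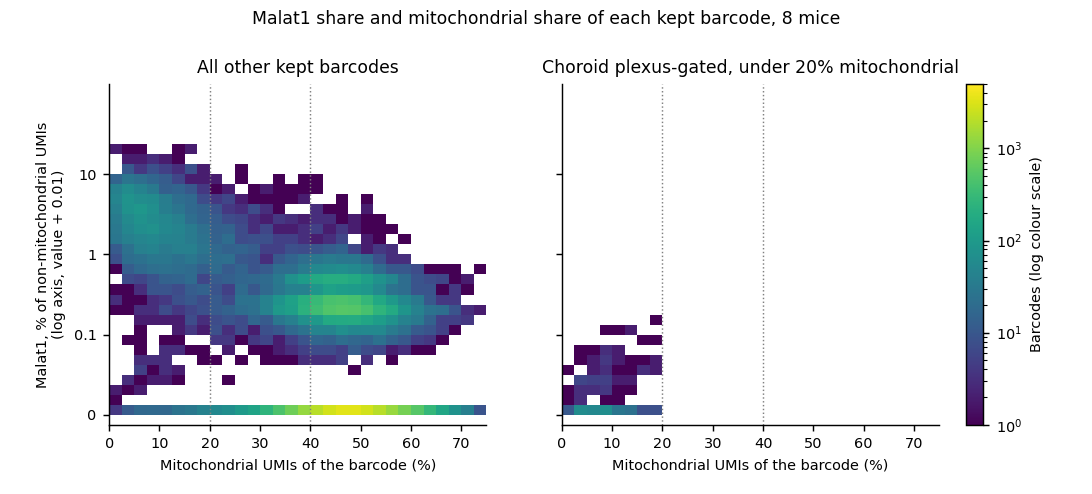
Number of kept barcodes of 8 mice (log colour scale) by mitochondrial share (horizontal axis) and by the share of non-mitochondrial UMIs that Malat1 takes (vertical axis, log scale of the value + 0.01), with dotted lines at 20% and 40%. The right panel holds the choroid plexus-gated barcodes selected to have under 20% mitochondrial UMIs, and these held almost no Malat1. The left panel holds all other kept barcodes, including choroid plexus-gated ones with 20% or more. There, barcodes under 20% mitochondrial UMIs lie mainly above 1% Malat1 and those over 40% mainly below 1% or at 0.

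The classes were compared with edgeR's quasi-likelihood test on UMIs summed per mouse and class, with the mouse as a block and Benjamini-Hochberg adjusted p-values over 10545 genes. The contrast was broad, since 39.7% of genes were called higher and 39.2% lower in low-mitochondrial barcodes at an adjusted p under 0.05. Of the 8 RNAs, 6 had enough counts for the test, 5 were called higher and 1 lower. On the log2 scale Malat1 was higher by 4.60 (SE 0.52, adjusted p = 3.79e-06), Neat1 by 4.53 (SE 0.37, adjusted p = 2.31e-07) and Kcnq1ot1 by 4.62 (SE 0.49, adjusted p = 1.93e-06). Meg3 was higher by 2.76 (SE 0.52, adjusted p = 0.00029) and Snhg11 by 1.45 (SE 0.58, adjusted p = 0.0365). Rian fell by 2.01 (SE 0.33, adjusted p = 9.98e-05). Miat and Mirg did not pass the filter on low counts, and without that filter Miat was at 2.59 (SE 0.31, adjusted p = 4.06e-09) and Mirg at 1.20 (SE 0.33, adjusted p = 0.00219), while Snhg11 was at 1.16 (SE 0.70) and no longer called (adjusted p = 0.209). With the counts scaled by library total alone, 5337 genes were called higher and 2878 lower, against 4188 and 4138 in the test above, and the median of all genes moved from -0.02 to 0.57. Relative to those medians the direction of the 6 RNAs was the same, with Malat1 at 5.23 and Rian at -1.41.

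The Snhg11 call was the weak one. It was lost without Tsc2wt/wt replicates 2 or 3 or Tsc2mut/mut replicates 1, 2 or 3, where its log2 fold change was 1.09 to 1.40 and its adjusted p 0.0807 to 0.124. It was also lost without the 5% of barcodes with the most UMIs, at 0.29 (adjusted p = 0.338), with DESeq2, at 1.13 (adjusted p = 0.0619), with a minimum of 200 genes (adjusted p = 0.0586) and with mitochondrial genes in the library size (adjusted p = 0.0582). The other 5 calls held without each mouse in turn, with Malat1 at 4.34 to 4.78, Neat1 at 4.37 to 4.75, Kcnq1ot1 at 4.36 to 4.77, Meg3 at 2.44 to 2.93 and Rian at -2.19 to -1.85. Without the choroid plexus-gated barcodes Malat1 was at 4.81, Neat1 at 4.69, Kcnq1ot1 at 4.81, Meg3 at 2.98, Snhg11 at 1.71 and Rian at -1.82.

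Other long noncoding RNAs split in both directions, as did all genes, of which 39.7% were called higher and 39.2% lower. Of 24 listed RNAs found in the files, 20 were tested, 7 rose and 10 fell in low-mitochondrial barcodes, with a median of -0.49 against -0.02 over all genes. Xist, which coats the inactive X chromosome, was higher by 4.64 (SE 0.41) and Firre, which tethers X-linked loci in the nucleus, by 4.37 (SE 0.43). Snhg8, a spliced host gene of a small nucleolar RNA, fell by 3.86 (SE 0.29). Of the genes for nuclear body proteins, 11 were tested, 7 rose and 2 fell, with a median of 0.56. The paraspeckle gene Pspc1 was higher by 1.84 (SE 0.25) and Sfpq by 1.34 (SE 0.17), and Son, a core protein of nuclear speckles, by 1.52 (SE 0.23). Of the ribosomal protein genes, whose messengers are cytoplasmic, 83 were tested, 82 fell and none rose, with a median of -3.19. Rpsa fell by 3.88 (SE 0.31), Rpl37 by 3.83 (SE 0.35) and Rplp1 by 3.81 (SE 0.35). Of 9 imprinted neighbours, 3 were tested. Cdkn1c, a cell cycle inhibitor silenced in cis by Kcnq1ot1, was higher by 3.57 (SE 0.37), or by 2.07 (SE 0.48) without the choroid plexus-gated barcodes, and Begain, next to the Dlk1-Dio3 domain, fell by 4.39 (SE 0.35).

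The classes also differ in cell types, so the comparison was repeated within 1 marker gate. A barcode was gated to a cell type when it held UMIs of at least 3 markers of that type and at least 2 times as many as of any other. In the NSC/astrocyte gate Malat1 was at 33671 to 45904 CPM in low-mitochondrial barcodes of the 8 mice and at 306 to 1237 CPM in high-mitochondrial ones. The 6 low-mitochondrial NSC/astrocyte-gated barcodes of Tsc2mut/mut replicate 4 held 41760 CPM, within the range of the other mice. Over the 7 mice with at least 10 such barcodes in each class, 43.9% of 8197 genes were called higher and 44.8% lower. Malat1 was higher by 5.65 (SE 0.25), Kcnq1ot1 by 5.81 (SE 0.23), Neat1 by 4.60 (SE 0.20) and Miat by 3.05 (SE 0.40). Meg3, at 0.59 (SE 0.24, adjusted p = 0.0260), was smaller here than the 2.76 over all barcodes, a difference that was not tested. Rian fell by 3.35 (SE 0.19) within the gate, with 5.12, 15.7, 14.4 and 3.86 CPM and 35.3, 8.29, 19.3 and 0 CPM in the low class against 94.5 to 145 CPM in the high class. In this gate 10 of 21 other long noncoding RNAs rose and 10 fell, led by Xist (5.48), Rmst (5.01) and Firre (4.79). A high-mitochondrial barcode can pass the gate on marker UMIs from free RNA, and the part of free RNA in this contrast was not tested.

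Cell types among low-mitochondrial barcodes were read from the same gates, which used no member of the group of 8. The gates took 1189 NSC/astrocyte, 524 oligodendrocyte, 497 microglia, 334 choroid plexus, 182 ependymal, 91 inhibitory neuron or neuroblast, 67 endothelial and 23 oligodendrocyte progenitor barcodes. One barcode passed as an excitatory neuron and none as a mural cell or striatal projection neuron, so 2908 of 3470 were gated. A gene outside each marker list followed the gate, as with Mbp at 3256 CPM in oligodendrocyte-gated against 362 in other gated barcodes, and Ttr at 281512 against 694 CPM in the choroid plexus gate. Each type was compared with the other gated barcodes of the same mice, and a level below is the mean over mice with at least 10 barcodes of the type. For every other type this reference includes the choroid plexus-gated barcodes, which held 18.9% of the non-mitochondrial UMIs of low-mitochondrial barcodes. They held 0.035% of the Malat1 UMIs, 0.32% of the Neat1 UMIs and 0.18% of the Kcnq1ot1 UMIs. Levels are shares of the non-mitochondrial UMIs of a gate, so from levels alone less of an RNA and more of other RNAs cannot be told apart. In counts, the 334 choroid plexus-gated barcodes held 111 Malat1 UMIs among 2203785 non-mitochondrial UMIs. The 1189 NSC/astrocyte-gated barcodes held 174613 Malat1 UMIs.

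Malat1 was abundant in every gate but the choroid plexus. Oligodendrocyte-gated barcodes held 56704 ± 14870 CPM (SD, n = 7 mice), NSC/astrocyte-gated ones 41769 ± 4170 (n = 7), ependymal ones 34141 ± 5233 (n = 6), endothelial ones 21660 ± 2499 (n = 3), microglia 20505 ± 4552 (n = 7) and inhibitory ones 16230 ± 4296 (n = 4). The first 2 overlap within their spread, and so do the last 3. Choroid plexus-gated barcodes held 58.5 ± 29.1 CPM (n = 7), and 60% to 92.2% of them had no Malat1 UMI although Ttr filled their libraries. They belong to the reference of every other gate, and their part in the differences of those gates below was not tested. Against the other gated barcodes Malat1 was higher by 0.98 in oligodendrocyte-gated barcodes (SE 0.16, adjusted p = 1.42e-05; 54.8% of 6054 genes called) and by 0.86 in NSC/astrocyte-gated ones (SE 0.30, adjusted p = 0.0203; 63.8% of 8470 genes called). The second call was lost, at an adjusted p of 0.0522 to 0.0532, without Tsc2wt/wt replicate 2 or Tsc2mut/mut replicates 1 or 3. Its sign turned, to -0.42 (adjusted p = 0.0989), when gates were drawn in all kept barcodes whatever their mitochondrial share. The NSC/astrocyte gate then took 812 to 4084 barcodes per mouse, against 6 to 314 low-mitochondrial ones. For the oligodendrocyte gate this was 35 to 226 against 6 to 152. In that setting a gate and its reference therefore also differ in mitochondrial share, and the part of this in the values was not tested. Malat1 fell by 1.17 in microglia (SE 0.22, adjusted p = 8.66e-05; 62.7% of 6022 genes called) and by 9.09 in choroid plexus-gated barcodes (SE 0.35, adjusted p = 3.51e-106; 86.5% of 7135 genes called). In ependymal barcodes it was at 0.06 (SE 0.16, adjusted p = 0.799; 49.9% of 5591 genes called). The calls in oligodendrocyte-gated barcodes and microglia held without each mouse in turn, at 0.92 to 1.06 and at -1.28 to -0.96, but in all kept barcodes the microglia value was -0.27 (adjusted p = 0.167).

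Neat1 was a transcript of oligodendrocyte-gated barcodes above all others. It was at 1124, 849, 1050 and 953 CPM there in the Tsc2wt/wt mice and at 1050, 1149 and 864 CPM in Tsc2mut/mut replicates 1 to 3, above every value of the other gates in mice with 10 barcodes. The fit gave 2.63 (SE 0.19, adjusted p = 1.16e-10). Ependymal barcodes held 253 ± 135 CPM (n = 6), NSC/astrocyte-gated ones 240 ± 76.4 (n = 7), endothelial ones 228 ± 57.0 (n = 3) and microglia 136 ± 79.4 (n = 7). Microglia were lower than the other gated barcodes by 1.67 (SE 0.24) and choroid plexus by 5.73 (SE 0.36). In the 91 inhibitory neuron or neuroblast barcodes no Neat1 UMI was counted among 237409 UMIs, which allows up to 12.6 CPM for counting error.

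Kcnq1ot1 was highest in ependymal barcodes, the ciliated lining of the ventricle. It was at 895, 704 and 844 CPM in Tsc2wt/wt replicates 1 to 3 and at 486, 847 and 672 CPM in Tsc2mut/mut replicates 1 to 3, and higher than in the other gated barcodes by 1.87 (SE 0.22, adjusted p = 2.63e-07). Inhibitory barcodes held 451 ± 148 CPM (n = 4), within the spread of the lower ependymal values. The oligodendrocyte (288 ± 115), NSC/astrocyte (254 ± 53.9), microglia (178 ± 68.1) and endothelial (160 ± 35.9) gates followed. Pooled over mice, the 23 oligodendrocyte progenitor barcodes held 623 CPM on 47 UMIs, against 728 CPM in ependymal barcodes, and were not tested. Microglia were lower by 0.95 (SE 0.20), a call lost with gates in all kept barcodes (-0.19, adjusted p = 0.399), and choroid plexus by 6.38 (SE 0.40). In NSC/astrocyte-gated barcodes Kcnq1ot1 was at 0.20 (SE 0.18, adjusted p = 0.335) and in oligodendrocyte-gated ones at 0.31 (SE 0.22, adjusted p = 0.235). With gates in all kept barcodes both were called, at -1.11 (adjusted p = 4.6e-05) and 1.22 (adjusted p = 7.62e-12). Most NSC/astrocyte-gated barcodes are then not low-mitochondrial, and the part of mitochondrial share in these values was not tested.

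Meg3, Rian and Miat were highest in inhibitory neuron or neuroblast barcodes, while Mirg and Snhg11 were high there in only some mice. In inhibitory barcodes Meg3 was at 4535 and 2621 CPM in Tsc2wt/wt replicates 2 and 4 and at 6119 and 1170 CPM in Tsc2mut/mut replicates 1 and 3, the mice with at least 10 such barcodes. Ependymal barcodes held 443 ± 74.7 CPM (n = 6) and of the other gates with 10 barcodes in any mouse none exceeded 82.0 CPM on average. Rian was at 467 ± 290 CPM in inhibitory and 96.1 ± 20.3 CPM in ependymal barcodes, and Miat at 151 ± 9.93 and 26.1 ± 28.6. Snhg11 in inhibitory barcodes came from 67 UMIs in Tsc2wt/wt replicate 2 and 81 in Tsc2mut/mut replicate 1, with 0 in Tsc2wt/wt replicate 4 and 1 in Tsc2mut/mut replicate 3. Mirg gave 4, 13, 0 and 1 UMIs in the same order, and its mean of 62.3 ± 72.9 CPM overlapped the 23.8 ± 27.1 CPM of ependymal barcodes. With 10 barcodes in only 4 mice, under the minimum of 6 mice set for the fits, the inhibitory gate was not tested. In ependymal barcodes Meg3 rose by 1.67 (SE 0.33, adjusted p = 0.000229) and Rian by 1.85 (SE 0.44, adjusted p = 0.00127). With gates in all kept barcodes this Rian call was lost, at 0.20 (adjusted p = 0.596). In NSC/astrocyte-gated barcodes Meg3 fell by 1.91 (SE 0.20), Rian by 1.49 (SE 0.23) and Snhg11 by 1.69 (SE 0.49). With gates in all kept barcodes Rian turned to a called rise of 1.25 in this gate (adjusted p = 0.00123). Most barcodes of the gate are then not low-mitochondrial, and their part in this turn was not tested. Meg3 fell by 3.44 in oligodendrocyte-gated barcodes (SE 0.39). The 23 oligodendrocyte progenitor barcodes, pooled over mice, held 1206 CPM of Meg3.

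The other lists were also compared by type. Over all genes tested, 63.8% were called in NSC/astrocyte-gated, 54.8% in oligodendrocyte-gated, 62.7% in microglia-gated and 49.9% in ependymal barcodes, in either direction. Of the other long noncoding RNAs 6 rose and 7 fell of 20 tested in NSC/astrocyte-gated barcodes, where Rmst was higher by 2.16 (SE 0.32) and Pantr1 by 1.90 (SE 0.24) and Sox2ot fell by 1.75 (SE 0.34). In oligodendrocyte-gated barcodes 3 rose and 3 fell of 14, with Rmst at -7.04 (SE 0.39) and Sox2ot at 1.52 (SE 0.19). In microglia 2 rose and 5 fell of 14, and in ependymal barcodes 6 rose and 3 fell of 16, with Airn, which silences an imprinted cluster of its own, at 4.16 (SE 0.23). Ribosomal protein genes fell in each of these gates, 82 of 82 tested in NSC/astrocyte-gated, 44 of 80 in oligodendrocyte-gated, 65 of 80 in microglia-gated and 75 of 80 in ependymal barcodes, with none higher. The choroid plexus-gated barcodes are among the others in each of these comparisons. Of the nuclear body genes 5 rose and 2 fell of 10 in NSC/astrocyte-gated barcodes, among them Son at 1.33 (SE 0.18) and Srsf1, a splicing factor, at 1.25 (SE 0.16).

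**Figure D4:**
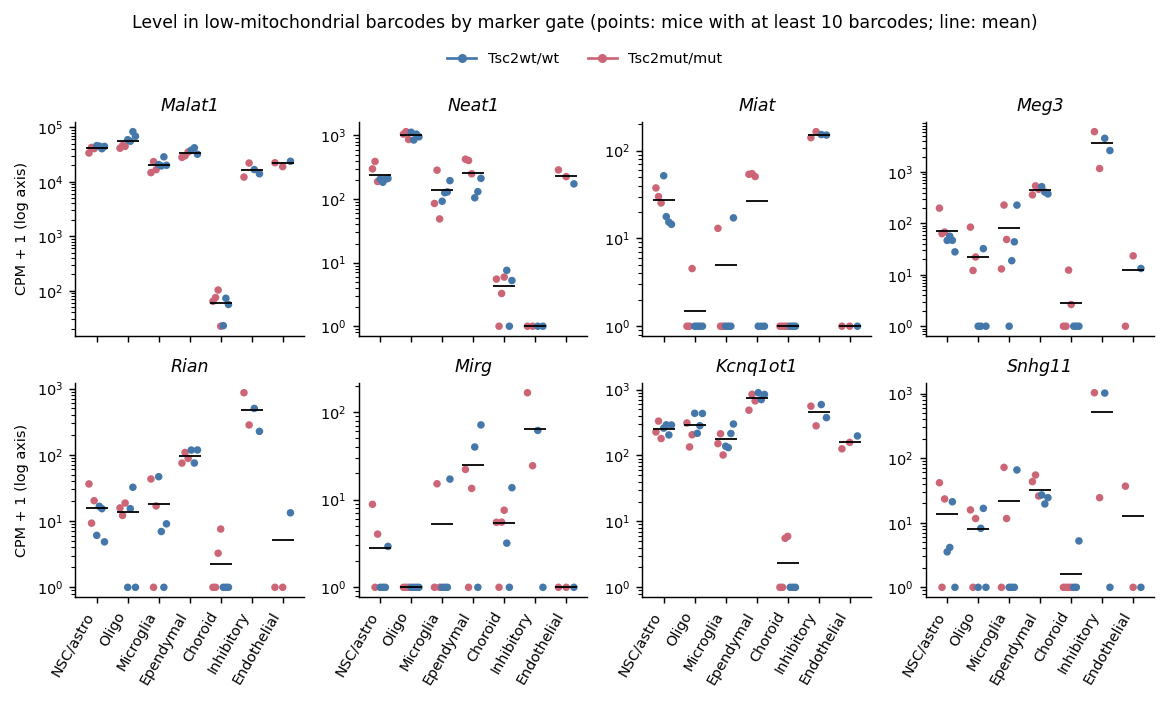
CPM + 1 (log axis) of each RNA in low-mitochondrial barcodes of 7 marker gates. Points are mice with at least 10 barcodes of the type, blue for Tsc2wt/wt and red for Tsc2mut/mut, and lines are means. Malat1 is at least 12161 CPM in every gate but the choroid plexus, Neat1 stands highest in oligodendrocyte-gated barcodes, Kcnq1ot1 in ependymal ones and Meg3 in inhibitory ones.

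Much of the Meg3 and Snhg11 signal came from barcodes that passed no gate. Ungated barcodes gave 66.9% of the low-mitochondrial Meg3 UMIs, 57.5% of Rian and 70.8% of Snhg11, against 18.5% of all non-mitochondrial UMIs. The inhibitory gate gave a further 18.7%, 18.4% and 15.3%, against 2.04% of all UMIs. Malat1 in contrast came from NSC/astrocyte-gated barcodes for 55.1% and from oligodendrocyte-gated ones for 20.4%. Neat1 came from oligodendrocyte-gated barcodes for 41.0%, although these held 10.4% of all UMIs. Ungated Meg3 was at 298, 663, 6317 and 462 CPM in the Tsc2wt/wt mice and at 1828, 3623, 1587 and 68.2 CPM in the Tsc2mut/mut mice. The same barcodes carried summed inhibitory markers at 107 to 2541 CPM, striatal markers at 240 to 821 CPM and excitatory markers at 17.0 to 332 CPM, with both the highest excitatory sum and the highest Meg3 in Tsc2wt/wt replicate 3. The part of neurons in these levels was not tested.

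In the choroid plexus gate a low mitochondrial share was not accompanied by these RNAs. There Malat1, Neat1 and Kcnq1ot1 all fell, and the 3 RNAs were at 58.5, 3.22 and 1.35 CPM. Among the other long noncoding RNAs 6 rose and 12 fell of 18 tested in this gate, led by Xist (-9.56), Pvt1 (-8.68) and Ftx (-8.34), with a median of -3.03 against -0.89 over all genes. All 83 ribosomal protein genes tested rose, with a median of 2.80. In the nuclear body list 2 rose and 7 fell of 10. Of all 7135 genes tested in this gate, 86.5% were called in either direction. In Tsc2mut/mut replicate 4, where such barcodes were most common, low-mitochondrial Malat1 went from 1834 to 5783 CPM when they were left out, still below the 26953 to 42228 CPM of the other 7 mice. Of its 84 remaining barcodes 64.3% held no Malat1 UMI.

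Genotype was compared in the low-mitochondrial, all kept and high-mitochondrial barcodes with the same test across all genes. None of the 8 RNAs was called in any of them. In low-mitochondrial barcodes 0% of 11048 genes were called by edgeR (168 at an unadjusted p under 0.05, 1 gene by DESeq2). Malat1 was at -0.74 (SE 0.74, adjusted p = 0.923), Neat1 at -0.20 (SE 0.58), Miat at 0.01 (SE 0.50), Meg3 at 0.44 (SE 0.95), Rian at 0.41 (SE 0.65), Mirg at 0.92 (SE 0.58), Kcnq1ot1 at -0.54 (SE 0.54) and Snhg11 at 0.36 (SE 1.22), as log2 fold changes of Tsc2mut/mut over Tsc2wt/wt. These standard errors leave changes of more than 1 log2 unit undetectable for most of the 8. Without Tsc2mut/mut replicate 4 Malat1 was at -0.46, Kcnq1ot1 at -0.27 and Neat1 at 0.09.

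In all kept barcodes 0.0155% of 12916 genes were called (331 at an unadjusted p under 0.05, 7 genes by DESeq2), with Malat1 at -0.71 (SE 0.44) and Mirg at 0.80 (SE 0.50), both at an adjusted p of 0.999. In high-mitochondrial barcodes 0.3% of 9661 genes were called (1129 at an unadjusted p under 0.05). Neat1 was at 0.92 there (SE 0.35, adjusted p = 0.277), Snhg11 at 0.69 (SE 0.23, adjusted p = 0.219) and Meg3 at 0.38 (SE 0.18, adjusted p = 0.398), the 3 of 6 tested with an unadjusted p under 0.05. Rian was at -0.03 (SE 0.12). The test of whether the genotype effect differed between low- and high-mitochondrial barcodes called 0% of 12721 genes (365 at an unadjusted p under 0.05), with Malat1 at -1.51 (SE 0.82, adjusted p = 0.839) and Neat1 at -1.44 (SE 0.57, adjusted p = 0.839). DESeq2 was not run on the last 2 comparisons. Of the other lists, 1 gene was called in them, the long noncoding RNA Epb41l4aos in high-mitochondrial barcodes (0.48, SE 0.11, adjusted p = 0.0496).

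**Figure D5:**
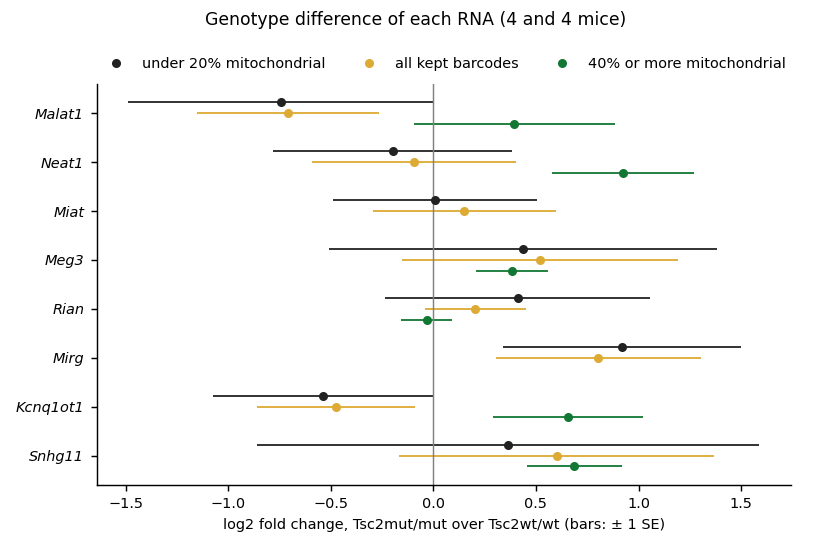
Log2 fold change of Tsc2mut/mut over Tsc2wt/wt for each RNA, with bars of 1 SE, in low-mitochondrial (black), all kept (yellow) and high-mitochondrial (green) barcodes of 4 and 4 mice. Miat and Mirg were not tested in the high-mitochondrial class, and no value had an adjusted p under 0.05.

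Within gated types the comparison used only mice with at least 10 barcodes, a choice made after the data were seen because no type reached that number in all 8. In NSC/astrocyte-gated barcodes 0.0285% of 7012 genes were called (511 at an unadjusted p under 0.05). Malat1 was at 45904, 44933, 40350 and 44438 CPM in the Tsc2wt/wt mice and at 33671, 42639 and 40450 CPM in Tsc2mut/mut replicates 1 to 3, in ranges that overlapped. Its log2 fold change was -0.23 (SE 0.09, adjusted p = 0.598), and those of Neat1 (0.43, SE 0.19), Meg3 (1.32, SE 0.46) and Snhg11 (2.23, SE 0.86) had adjusted p-values of 0.598 to 0.663. These were the 4 of 6 tested with an unadjusted p under 0.05. The others were Miat, at 0.37 (SE 0.41), and Kcnq1ot1, at -0.22 (SE 0.19). Snhg11 had 64 UMIs in this gate over all mice. In oligodendrocyte-gated barcodes 0.0273% of 3657 genes were called (261 at an unadjusted p under 0.05). Malat1 was at 58955, 55075, 82943 and 68105 CPM in the Tsc2wt/wt mice and at 41179, 46093 and 44580 CPM in the Tsc2mut/mut mice. The log2 fold change was -0.67 (SE 0.13) and the adjusted p was 0.0782. These ranges did not overlap. How many of the other genes tested also had ranges that did not overlap was not counted, so this is a description only. Without Tsc2wt/wt replicate 2 the log2 fold change was -0.69 with an adjusted p of 0.0266. That setting called 60 genes in all, against 1 with all 7 mice. Over the other mice left out in turn the log2 fold change of Malat1 was -0.69 to -0.49 with an adjusted p of up to 0.392. In microglia 0.0684% of 2925 genes and in choroid plexus-gated barcodes 2.15% of 2840 genes were called. Of the 8 RNAs only 3 had enough counts for the test in microglia and only 1, Malat1, in choroid plexus-gated barcodes. None of these was called, and the others were not tested there.

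The genotypes overlapped in the share of mitochondrial UMIs itself. It was 38.9% ± 2.54 in the Tsc2wt/wt and 38.1% ± 4.74 in the Tsc2mut/mut mice (SD, n = 4 each; exact two-sided permutation test, p = 0.771). The low-mitochondrial share of kept barcodes was 9.94% ± 2.40 against 8.90% ± 3.16 (exact two-sided permutation test, p = 0.6). With 4 mice against 4 the smallest p this test can give is 0.0286.

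Across the 8 libraries the level of each RNA in the kept barcodes was set against their mitochondrial share, in 8 relations tested by exact permutation of pairings, and none passed the correction. For Malat1 Pearson's r was -0.149 (exact permutation p = 0.730) and Spearman's rho was -0.048 (exact permutation p = 0.935). For Rian r was 0.560 (exact permutation p = 0.148, adjusted p = 0.603) and rho 0.286 (exact permutation p = 0.501). Miat had r = -0.555 (exact permutation p = 0.151, adjusted p = 0.603) and rho = -0.762 (exact permutation p = 0.0368, adjusted p = 0.294). The adjusted p of Pearson's r was at least 0.603 for all 8. Without the libraries farthest from the median share, Tsc2mut/mut replicates 1 and 2, r was 0.048 for Malat1, 0.768 for Rian and -0.545 for Miat. The relation of Malat1 to the mitochondrial share seen between barcodes of a library was not detectable between 8 libraries.

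Among 2320 genes with at least 10 UMIs in each of the 7 gated types with 50 or more barcodes, the pattern most like Malat1 was that of Kdm4c (r = 0.994 over 7 types), a histone demethylase, followed by Luc7l2 (0.994), a splicing factor. Kcnq1ot1 was followed most closely by Dcp1b (0.992) and Btrc (0.988), Neat1 by Eif4g1 (0.899) and Add3 (0.874), Miat by Acadsb (0.951) and Map2 (0.930) and Mirg by Ssbp3 (0.936) and Acadsb (0.844). Meg3 was most like Map2 (0.918), a neuronal microtubule protein, and Celf4 (0.907), a neuronal RNA-binding protein, and Rian like the same 2 genes in the other order (0.923 for Celf4, 0.908 for Map2). Snhg11 was nearest to Ptprs (0.961) and Ttc3 (0.946). These are descriptions over 7 points that share their libraries, and the choroid plexus is the low point of most of them.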

How the data were processed

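Nuclei of the V-SVZ of 8 mice were sorted and sequenced by the authors with a 10x Genomics 3′ kit, 1 library per mouse. Reads were aligned and counted by the authors with Cell Ranger on mm10, with 60000 barcodes forced per library, and deposited as raw UMI counts per gene and barcode. The submitters' notes also name Seurat 4. Whether intronic reads were counted is not given in the sources used here. Doublets were not called; gates needed at least 2 times as many distinct markers of a type as of any other. UMIs were summed per mouse and class (minimum of 300 genes; limits of 20% and 40% mitochondrial UMIs), mitochondrial genes were left out of library sizes, and sums were tested with edgeR 4.0.16 (TMM, filterByExpr, quasi-likelihood, Benjamini-Hochberg 0.05) in R 4.3.3, with the mouse as a block between classes and types. DESeq2 1.42.0 was an alternative. Exact permutation tests used SciPy 1.17.1 in Python 3.11.15. The scripts were tested on simulated counts. Annotation came from GENCODE M21 and microRNA hairpins from RefSeq. The 8 RNAs and the gene lists were chosen with earlier results of these data known. Named genes are the 8 RNAs, up to 3 called genes of each list with the largest change, and the 2 genes most like each RNA over gated types. Depth was 11182335 to 36773832 UMIs per library, and limits for counts of 0 are 3 counts of the total and cover counting error only. Mice are the replicates. Settings varied were the minimum of genes, the mitochondrial limits, thinning, normalization, the count filter, the gates and each mouse in turn. Shared replicate numbers did not pair the mice: deviations of same-numbered low-mitochondrial sums correlated at -0.696 to 0.471. No 2 libraries of the same genotype agreed within sampling noise, and pairs across genotypes were not compared.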

Additional observations from a re-analysis of the deposited data

Results flagged for a closer look

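Dixon's test at the 95% level was applied to the 4 mice of each genotype for each RNA in 4 sets of barcodes and for 2 mitochondrial shares, 68 groups in all. It flags about 5% of groups by chance at 1 end, and both ends were looked at. It picked out 10 values.

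In low-mitochondrial barcodes Tsc2mut/mut replicate 4 lay far below the other 3 mice for Malat1, at 1834 CPM. Its free RNA was also low for Meg3, at 26.6 CPM. In this library 57.8% of low-mitochondrial barcodes carried choroid plexus markers, and without them Malat1 was at 5783 CPM. Its 66 ungated low-mitochondrial barcodes held 678 CPM of Malat1, against 15324 to 21236 CPM in those of the other mice. The cause of the remaining gap was not tested.

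Tsc2wt/wt replicate 3 was far above the other controls in low-mitochondrial barcodes for Meg3 at 1110 CPM, Snhg11 at 278 CPM and Mirg at 20.2 CPM (13 UMIs). Its free RNA held 185 CPM of Meg3. Excitatory markers summed to 332 CPM in its ungated barcodes, against 32.4 to 73.9 CPM in the other controls, while its inhibitory markers (1111 CPM) and striatal markers (266 CPM) lay within the controls' ranges of 895 to 2118 and 240 to 522 CPM. The part of neurons was not tested.

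Among the Tsc2mut/mut mice replicate 1 was highest for Mirg, at 19.3 CPM in low-mitochondrial and 11.4 CPM in all kept barcodes. Among the Tsc2wt/wt mice replicate 4 was lowest for Miat in low-mitochondrial barcodes, at 18.1 CPM, and highest for Neat1 in all kept barcodes, at 121 CPM.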

How the results depend on the processing

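Of 211 values that answer a comparison under an alternative setting, 158 kept direction and call, and of 843 values of single RNAs 782 did. The causes of the changes below were not tested. Depth limits Miat and Mirg most, with 1 to 76 and 4 to 40 UMIs per mouse in low-mitochondrial barcodes.

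Between low- and high-mitochondrial barcodes 8326 genes were called. With a minimum of 1000 genes, which left 4 mice, 3892 of 6046 tested were called. Thinning to 500 non-mitochondrial UMIs gave 4623 of 5749, with 3 of the 8 RNAs higher and Neat1 and Snhg11 too sparse to test. Without the filter on low counts 12562 were called. Gates in all kept barcodes turned Malat1 to -0.42, Rian to 1.25 and Kcnq1ot1 to -1.11 in NSC/astrocyte-gated barcodes and Neat1 to 0.44 in ependymal ones, with 6097 genes called for oligodendrocytes, 6231 for microglia and 4833 for ependymal barcodes. Malat1 in ependymal barcodes ranged from -0.0086 to 0.18 without each mouse.

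Shared replicate numbers did not pair the mice. With the replicate block, 0 genes were called between genotypes in all kept barcodes, against 2 without it, and Miat was at -0.040 there and at -0.23 in low-mitochondrial barcodes; in those, 0 genes were called with and without the block. Miat in low-mitochondrial barcodes was also at -0.0093 with RLE scaling, -0.0186 without normalization factors and -0.0192 without the filter. DESeq2 called 1 gene between genotypes in low-mitochondrial and 7 in all kept barcodes. With a minimum of 500 genes 0 were called in all kept barcodes, with Neat1 at 0.065 and Rian at -0.065, and with a minimum of 1000 genes 0 were called.

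Leaving out each mouse gave ranges across 0 for genotype. In low-mitochondrial barcodes Neat1 ranged from -0.44 to 0.092, Miat from -0.27 to 0.25 and Snhg11 from -0.11 to 2.35, the last without Tsc2wt/wt replicate 3. In all kept barcodes Neat1 ranged from -0.39 to 0.26 and Miat from -0.22 to 0.44, with 0 to 3 genes called. In high-mitochondrial barcodes 13 to 99 genes were called (without Tsc2wt/wt replicate 3 and Tsc2mut/mut replicate 2), and Rian ranged from -0.12 to 0.086. The difference of genotype effects between classes ranged from -0.46 to 0.75 for Meg3 and from -0.21 to 1.55 for Snhg11. Called genes numbered 0 to 7 in NSC/astrocyte-gated, 0 to 60 in oligodendrocyte-gated, 0 to 36 in microglia-gated and 4 to 166 in choroid plexus-gated barcodes. Neat1 ranged from -0.078 to 0.12 in oligodendrocyte-gated and from -1.11 to 0.18 in microglia-gated barcodes, and Kcnq1ot1 from -0.75 to 0.0084 in the latter.

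The genotype difference in mitochondrial share was 0.986 percentage points with a minimum of 200 genes and ranged from -2.99 to 0.565 without each mouse, and that in the low-mitochondrial share of barcodes from -2.24 to 0.331. With levels scaled to all UMIs, Pearson's r with the mitochondrial share was -0.0090 for Meg3 and -0.0058 for Snhg11. The comparison within the NSC/astrocyte gate, the one without choroid plexus-gated barcodes and the minimum of 10 barcodes in genotype tests within types were chosen after seeing the data.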

Other observations

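Concentration of UMIs in few barcodes differed between the RNAs. The 5% of low-mitochondrial barcodes with the most UMIs of an RNA held 21.7% to 30.8% of Malat1, 32.2% to 39.8% of Neat1, 33.0% to 41.4% of Kcnq1ot1 and 76.0% to 95.5% of Meg3 in 7 mice. In Tsc2mut/mut replicate 4 they held 77.4% of Malat1, 87.5% of Neat1, 83.3% of Kcnq1ot1 and 100% of Meg3, on 1628, 16, 18 and 17 UMIs. No test was made of these shares, which rise as counts fall.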
